A study of Homo sapiens with 6 samples.

Results

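The genes that mark the epithelial and the mesenchymal state of a carcinoma cell were followed in PC9-BrM3 cells with AKR1B10 silenced. The set held the 10 genes CDH1, CDH2, CDH3, VIM, EPCAM, SNAI1, SNAI2, ZEB1, ZEB2 and TWIST1, out of 58735 genes in the expression table. The rule names them by their role and uses no measured value, though the set was chosen with earlier results of these data known. PC9-BrM3 is a derivative of the lung adenocarcinoma line PC9 with a high tendency to form brain metastases. The BrM3-shAKR1B10 group (3 libraries, labelled as AKR1B10 knockdown) expressed an shRNA against AKR1B10, and the BrM3-shNC group (3 libraries, labelled WT) a negative control shRNA. Both shRNAs were carried by a lentiviral vector together with luciferase, so the controls were infected cells too, and all cells were in routine culture in RPMI1640 with fetal bovine serum. RNA-seq of the pair asked which transcripts depend on AKR1B10, an aldo-keto reductase, in these cells. Each group was 1 cell line with 1 shRNA, and the labels do not say whether the 3 libraries came from separate cultures, so the p-values measure the spread between these libraries, which may be technical. AKR1B10 itself stood at 108, 107 and 110.2 FPKM (fragments scaled by transcript length and library size) in BrM3-shAKR1B10 and at 799, 775 and 772 FPKM in BrM3-shNC, so the target fell by 2.85 on the log2 scale (adjusted p = 1.592e-07, limma).

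Epithelial cells hold to each other through E-cadherin (CDH1), whose tail binds catenins that link it to actin. In epithelial-mesenchymal transition the zinc finger repressors SNAI1, SNAI2, ZEB1 and ZEB2 and the helix-loop-helix factor TWIST1 lower CDH1 and other epithelial genes, while N-cadherin (CDH2) and the intermediate filament protein vimentin (VIM) rise. The repressors bind E-boxes such as CACCTG, and ZEB1 and ZEB2 are in turn held down by the miR-200 family of microRNAs. Many carcinoma cells sit between the end states and carry markers of both.

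The libraries held 16964504 to 18709028 reads on genes. In a gene of 1000 bases 3 reads corresponded to 0.163 to 0.177 FPKM, taken as the smallest level the depth can show, for counting error only. BrM3-shNC replicate 1 stood apart from its group, with a chi-square per gene of 4.50 and 4.97 against the other controls, where the other same-group pairs gave 2.35 to 2.57. Without it the log2 fold change of CDH2 was 1.20 (adjusted p = 0.00361, limma) and that of EPCAM was -0.20 (adjusted p = 0.0183, limma). CDH1 (0.19, adjusted p = 0.00637, limma) and CDH3 (0.15, adjusted p = 0.0434, limma) passed too, and SNAI1 did not (-0.54, adjusted p = 0.0785, limma). The epithelial character of the cells was looked at with marker genes, which include the members EPCAM and CDH1. All 7 epithelial markers reached 1 FPKM, with a summed level of 3173 to 3258 FPKM in BrM3-shAKR1B10 and 2990 to 3352 FPKM in BrM3-shNC. None of 4 lung adenocarcinoma markers did, with the lineage factor NKX2-1 at a mean of 0.155 FPKM and the protease NAPSA at 0.483 FPKM, so the lung origin rests on the labels. Of the fibroblast markers 1 of 7 passed 1 FPKM (COL1A1), with COL1A2, DCN and LUM at 0 in every library. The leukocyte markers gave 0 of 4, the endothelial markers 1 of 4 (CDH5, with KDR at 0) and the brain cell markers 1 of 6 (MBP, 2.99 FPKM).

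Because the ZEB repressors and the miR-200 family form the best known switch of this state, their sequences are shown first. The mature microRNAs (RefSeq, GRCh38.p14) fall into groups by seed, the bases 2 to 8 that pair with a target, printed in capitals.
hsa-miR-200b-3p: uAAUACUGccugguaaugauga
hsa-miR-200c-3p: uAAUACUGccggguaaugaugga
hsa-miR-429: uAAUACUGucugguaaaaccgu
hsa-miR-200a-3p: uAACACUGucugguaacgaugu
hsa-miR-141-3p: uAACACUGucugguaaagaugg
hsa-miR-205-5p: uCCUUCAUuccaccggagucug
The first 3 share a seed and the next pair shares another. The mature sequences of miR-200b, miR-200a and miR-429 lie together on chromosome 1, at chr1:1167160-1167181, chr1:1167916-1167937 and chr1:1169055-1169076, all on the plus strand. Those of miR-200c and miR-141 lie on chromosome 12, at chr12:6963742-6963764 and chr12:6964155-6964176, also on the plus strand.

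The 3′ UTRs of the members (the longest UTR of each gene in GENCODE 29, GRCh38) were searched on the transcript's strand for the letters that pair with each seed. CAGTATT, which pairs with the seed of the first group, occurred 6 times in the 2549 bases of ZEB1 and 5 times in the 5370 bases of ZEB2. Of 19071 genes 16.0% held it at all, and 3 held it at least 6 times. CAGTGTT, for the other miR-200 seed, occurred 3 times in ZEB1 and 4 times in ZEB2. None of CDH1, CDH2, CDH3, VIM, EPCAM, SNAI1 or TWIST1 held either word in the UTR searched, and SNAI2 was left out. A site of each kind is shown, the first found in each UTR, with the matching letters in capitals.
ZEB1 chr10:31527618-31527645 (plus strand, 3′ UTR): attgttttatcttatCAGTATTatcact
ZEB2 chr2:144389047-144389074 (minus strand, 3′ UTR): cgcactaccatacatCAGTATTtttatt
ZEB1 chr10:31528031-31528058 (plus strand, 3′ UTR): caaaatcatcagaatCAGTGTTtgtgat
ZEB2 chr2:144389231-144389258 (minus strand, 3′ UTR): tgcaaaaattttgtaCAGTGTTaaggcc
The word for miR-205, ATGAAGG, occurred once in ZEB1 and once in CDH3, and in 11.6% of all genes. These are matches of letters, not measured sites.

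The 10 genes spread over a wide range of levels. EPCAM and CDH1 stood among the most abundant transcripts, CDH3 in the middle, and CDH2 and SNAI1 near 1 FPKM. SNAI2 lay below that, and ZEB1, VIM, ZEB2 and TWIST1 lay at or near the limit of detection. Of the 10 genes 5 reached a mean of 1 FPKM over the 6 libraries and were tested, namely EPCAM, CDH1, CDH3, SNAI1 and CDH2. Levels are compared between genes as FPKM, which is per length.

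**Figure D1:**
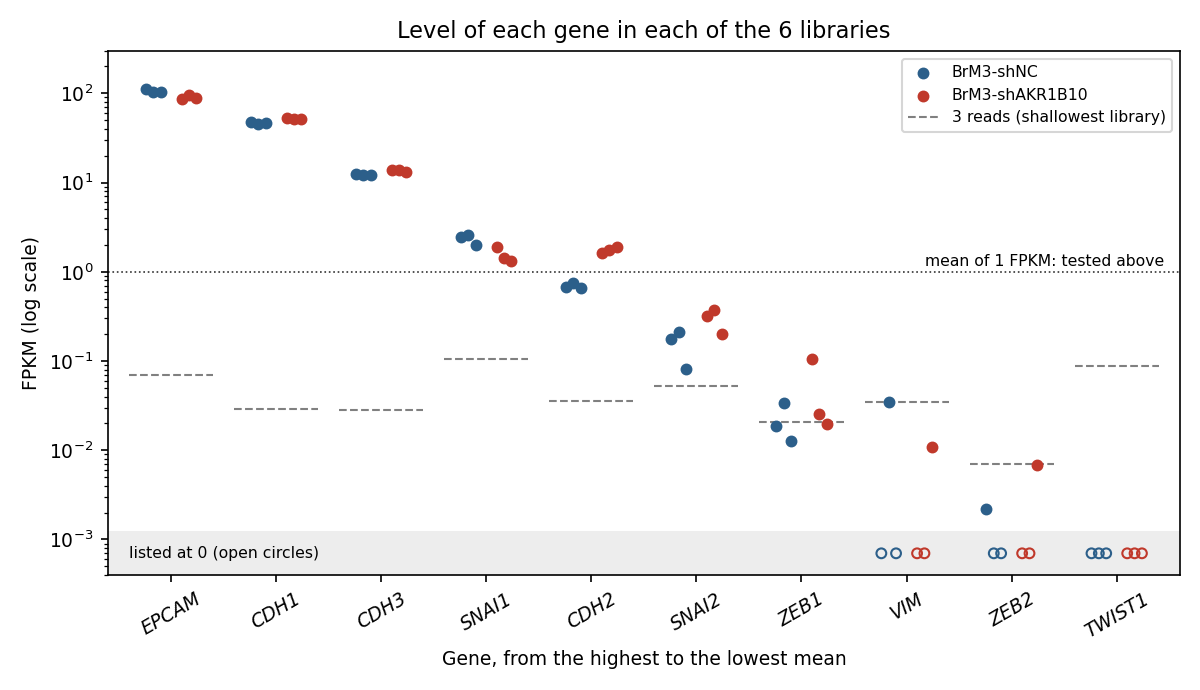
FPKM of each gene on a log axis, with 1 point per library (blue for BrM3-shNC, red for BrM3-shAKR1B10), open circles for libraries listed at 0 and a dashed line at the level of 3 reads in the shallowest library. EPCAM, CDH1 and CDH3 lie above 10 FPKM in all 6 libraries, SNAI1 lies between 1.34 and 2.60 FPKM, CDH2 on either side of 1 FPKM by group, and VIM, ZEB2 and TWIST1 at or below the level of 3 reads.

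A gene was called where limma's adjusted p was under 0.05 and the log2 fold change of BrM3-shAKR1B10 against BrM3-shNC was above 0.5 in size. By that rule 1 of the 5 tested members was called higher (CDH2) and 1 lower (SNAI1), where 5.83% of all 13150 genes tested were called higher and 7.45% lower. With no minimum size, CDH1, CDH2 and CDH3 passed the adjusted p in the higher direction and EPCAM and SNAI1 in the lower one, against 19.4% of all genes tested that passed as higher and 23.1% that passed as lower. In all 5 the libraries of the 2 groups did not overlap, which also held for 54.7% of all genes tested. The exact two-sided permutation p of each was 0.1, the smallest that 3 against 3 libraries can give.

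**Figure D2:**
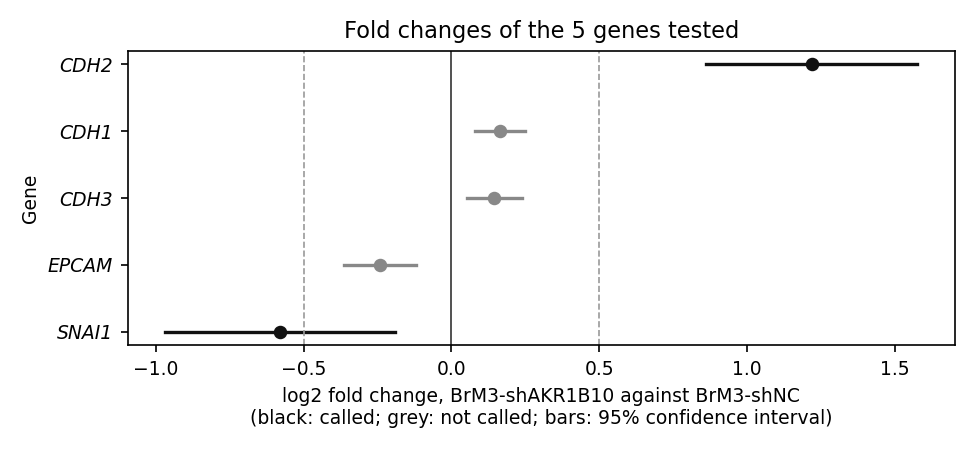
Log2 fold change of BrM3-shAKR1B10 against BrM3-shNC on log2(FPKM + 0.1) for the 5 tested members, with 95% confidence intervals. CDH2 lies at 1.22 with an interval wholly above 0.5, CDH1, CDH3 and EPCAM lie within 0.5 of 0, and the interval of SNAI1 reaches from -0.97 to -0.19.

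EPCAM, the epithelial cell adhesion molecule that is used to capture carcinoma cells, was the most abundant member and lower after the knockdown. The gene lies at chr2:47345158-47387601 on the plus strand (GRCh38). It stood at 87.0, 95.1 and 88.5 FPKM in BrM3-shAKR1B10 and at 113, 104 and 103 FPKM in BrM3-shNC (means 90.2 ± 4.33 and 107 ± 5.40 FPKM, SD, n = 3). Every control library lay above every knockdown library. The log2 fold change was -0.24 (95% CI -0.36 to -0.12, SE 0.0510, adjusted p = 0.00975, limma), below the size needed for a call. By mean level EPCAM ranked 302 of 58735 genes in BrM3-shNC and 356 in BrM3-shAKR1B10.

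CDH1, the cadherin of epithelial junctions, moved the other way by a smaller amount. Its levels were 52.4, 52.2 and 51.3 FPKM in BrM3-shAKR1B10 and 48.0, 44.8 and 46.3 FPKM in BrM3-shNC (means 52.0 ± 0.597 and 46.4 ± 1.61 FPKM). The lowest knockdown library lay above the highest control library. The log2 fold change was 0.16 (95% CI 0.08 to 0.25, SE 0.0348, adjusted p = 0.00975, limma), again too small for a call. EPCAM per CDH1 was 1.74 ± 0.0806 in BrM3-shAKR1B10 and 2.30 ± 0.0626 in BrM3-shNC, with no overlap, so these epithelial surface markers moved in opposite directions.

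CDH3, the P-cadherin of basal epithelia, lies just upstream of CDH1 on chromosome 16, at chr16:68636189-68722616 against chr16:68737225-68835548 for CDH1, on the same strand. It stood at 13.9, 14.0 and 13.1 FPKM in BrM3-shAKR1B10 and at 12.4, 12.3 and 12.2 FPKM in BrM3-shNC. The log2 fold change was 0.15 (95% CI 0.05 to 0.24, SE 0.0391, adjusted p = 0.0241, limma). The adjusted p of CDH3 ranged from 0.0187 to 0.0788 over the fits without 1 of the libraries and was above 0.05 in 4 of those 6 fits. CDH1 per CDH3 was 3.81 ± 0.0991 in BrM3-shAKR1B10 and 3.76 ± 0.113 in BrM3-shNC, and the groups overlapped in this ratio.

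CDH2, the N-cadherin of neural and mesenchymal cells, carried the largest change of the 5 tested members. Its gene covers chr18:27950966-28177446 on the minus strand. It stood at 1.62, 1.76 and 1.88 FPKM in BrM3-shAKR1B10 and at 0.672, 0.753 and 0.664 FPKM in BrM3-shNC (means 1.75 ± 0.128 and 0.696 ± 0.0491 FPKM). All 3 control libraries lay below 1 FPKM and all 3 knockdown libraries above it. The log2 fold change was 1.22 (95% CI 0.86 to 1.58, SE 0.149, adjusted p = 0.00102, limma). The depth behind it was 142, 157 and 165 reads in BrM3-shAKR1B10 and 61, 63 and 60 reads in BrM3-shNC. CDH2 passed the filter on the mean level only through the knockdown libraries, and its call held in every alternative in which it was tested, including those with no filter, with a log2 fold change of 0.70 when the pseudocount was 1.

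The rise of CDH2 took place far below CDH1. CDH1 per CDH2 was 29.8 ± 2.49 in BrM3-shAKR1B10 and 66.9 ± 6.49 in BrM3-shNC. Of the summed FPKM of the 3 cadherins CDH2 made up 2.39%, 2.59% and 2.84% in the knockdown libraries and 1.10%, 1.30% and 1.12% in the controls. CDH1 made up 77.1% ± 0.279 in the knockdown libraries and 78.1% ± 0.581 in the controls. The groups met at 77.43%, the highest knockdown and the lowest control value. Thus the transcript pool of these cadherins remained mostly CDH1 in both groups, with a larger CDH2 part after the knockdown. The reads come from bulk RNA, in which a change in every cell and a change in the number of cells with the transcript cannot be told apart.

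**Figure D3:**
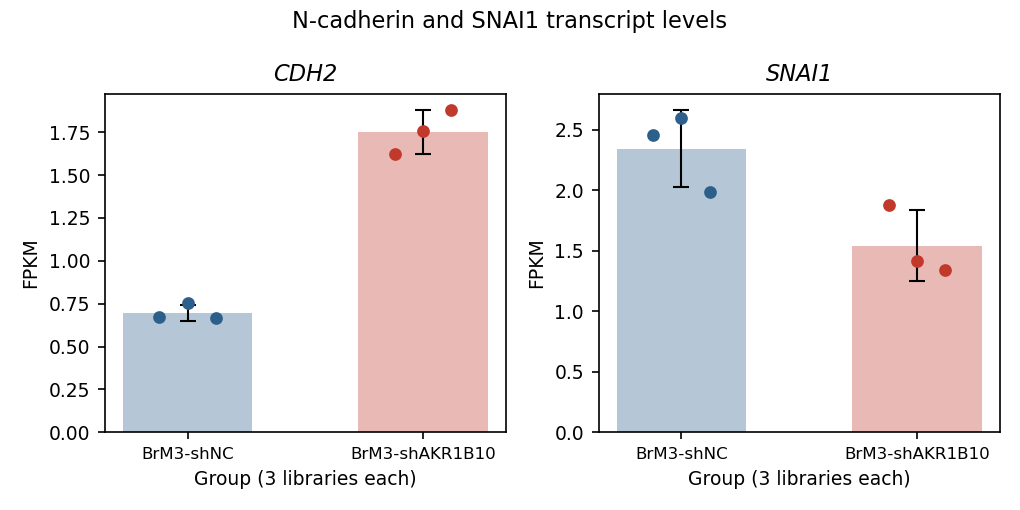
FPKM of CDH2 and SNAI1, with bars at the group mean, error bars for the SD and 1 point per library (n = 3 per group). CDH2 lies between 1.62 and 1.88 FPKM after the knockdown against 0.664 to 0.753 FPKM in controls, and SNAI1 between 1.34 and 1.88 FPKM against 1.98 to 2.60 FPKM.

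SNAI1, the Snail repressor that binds the CDH1 promoter, was lower after the knockdown, opposite in direction to CDH2. It lies at chr20:49982999-49988886 on the plus strand. Its levels were 1.88, 1.41 and 1.34 FPKM in BrM3-shAKR1B10 and 2.46, 2.60 and 1.98 FPKM in BrM3-shNC (means 1.54 ± 0.294 and 2.34 ± 0.321 FPKM). The groups did not overlap, but the highest knockdown library and the lowest control library lay close together. The log2 fold change was -0.58 (95% CI -0.97 to -0.19, SE 0.163, adjusted p = 0.0280, limma). It rested on 56, 43 and 40 reads in BrM3-shAKR1B10 and 76, 74 and 61 reads in BrM3-shNC. The call was lost without BrM3-shAKR1B10 replicate 2 (adjusted p = 0.0808, limma), BrM3-shAKR1B10 replicate 3 (adjusted p = 0.0816, limma), BrM3-shNC replicate 1 (adjusted p = 0.0785, limma) or BrM3-shNC replicate 2 (adjusted p = 0.0874, limma), and with no filter on low values (adjusted p = 0.0672, limma). SNAI1 per CDH2 was 3.36 ± 0.344 in BrM3-shNC and 0.891 ± 0.236 in BrM3-shAKR1B10. In every control library SNAI1 stood above CDH2, whereas after the knockdown the levels of these genes overlapped.

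SNAI2, the Slug repressor on chromosome 8, was present at a low level and was not tested with the other genes. It stood at 0.317, 0.376 and 0.199 FPKM in BrM3-shAKR1B10 and at 0.177, 0.209 and 0.0808 FPKM in BrM3-shNC, from 19, 23 and 12 reads and from 11, 12 and 5 reads. The groups overlapped and the exact two-sided permutation p was 0.2. With a minimum of 0.1 FPKM its log2 fold change was 0.65 (95% CI -0.19 to 1.49, adjusted p = 0.237, limma), and with no filter the adjusted p was 0.311 (limma). On reads recovered from the FPKM values and with all genes of at least 10 reads, limma's voom gave a log2 fold change of 0.97 (95% CI 0.06 to 1.87, adjusted p = 0.0992). In that fit SNAI2, unlike SNAI1, had a positive log2 fold change, and it did not pass the threshold.

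ZEB1 was close to the limit of the depth. It gave 16, 4 and 3 reads in BrM3-shAKR1B10, or 0.105, 0.0256 and 0.0196 FPKM, and 3, 5 and 2 reads in BrM3-shNC, or 0.0189, 0.0342 and 0.0127 FPKM. A single knockdown library, replicate 1, stood above the rest, and the exact two-sided permutation p was 0.5. ZEB2 gave 0, 0 and 3 reads in BrM3-shAKR1B10 and 1, 0 and 0 reads in BrM3-shNC. TWIST1 gave 0 reads in all 6 libraries, which allows up to 0.0804 to 0.0873 FPKM. Differences in these repressors were not detectable at this depth.

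VIM, which is abundant in mesenchymal cells, gave 0, 0 and 1 reads in BrM3-shAKR1B10 and 0, 3 and 0 reads in BrM3-shNC. In the annotation 24.4% of its exon bases are shared with VIM-AS1 and another gene on the opposite strand, and 75.6% are free of any other gene. VIM-AS1 had 0 FPKM in 4 of the 6 libraries and at most 0.0556 FPKM in the others. How reads on overlapping genes were assigned is not given in the sources used here. CDC42, a GTPase that cells in general express and that is named after its values were seen, was listed at a mean of 0.165 FPKM on 5 to 17 reads, with 59.4% of its exon bases shared with other genes and 40.6% free. A low value of an overlapped gene in these files may thus not give its transcript level, and for VIM this was not tested. The rise of CDH2 therefore stood beside a VIM that was listed near 0 in both groups. The overlap was 11.1% in CDH3, 6.94% in TWIST1, 5.62% in CDH1, 5.18% in ZEB2, 4.23% in ZEB1 and 2.75% in CDH2, all on the opposite strand, and 0 in EPCAM, SNAI1 and SNAI2.

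By mean level the order in BrM3-shNC was EPCAM, CDH1, CDH3, SNAI1, CDH2, SNAI2, then ZEB1, VIM, ZEB2 and TWIST1. In BrM3-shAKR1B10 the order was the same but for SNAI1 and CDH2, which changed places and whose libraries overlapped there. The neighbours above SNAI2 were otherwise separated by more than the spread of the libraries in both groups, and those below it rested on 16 reads or fewer in each library.

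The transcripts that carry the miR-200 family were looked at next, because mature microRNAs are not measured in poly-A selected libraries of long fragments. MIR200CHG, the host transcript of miR-200c and miR-141, stood at 5.50, 4.11 and 5.64 FPKM in BrM3-shAKR1B10 and at 4.05, 2.03 and 2.35 FPKM in BrM3-shNC. The groups did not overlap, though the lowest knockdown and the highest control library nearly met. Its log2 fold change was 0.88 (SE 0.258, adjusted p = 0.0321, limma), on 12 to 35 reads per library. The call of MIR200CHG was lost without BrM3-shAKR1B10 replicate 1 (adjusted p = 0.0932, limma), BrM3-shAKR1B10 replicate 3 (adjusted p = 0.0954, limma), BrM3-shNC replicate 2 (adjusted p = 0.0834, limma) or BrM3-shNC replicate 3 (adjusted p = 0.0904, limma), and with no filter on low values (adjusted p = 0.0818, limma).

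The microRNA genes themselves did not share that call. On chromosome 12 MIR200C (log2 fold change 0.42, adjusted p = 0.614, limma) and MIR141 (-0.05, adjusted p = 0.906, limma) did not pass, on 2 to 11 reads per library. On chromosome 1 MIR200A stood at 34.0, 29.5 and 35.1 FPKM in BrM3-shAKR1B10 and at 46.0, 40.7 and 35.9 FPKM in BrM3-shNC, and its log2 fold change of -0.31 (adjusted p = 0.0484, limma) was too small for a call. It rested on 48 to 76 reads per library. MIR200B (-0.39, adjusted p = 0.0960, limma) and MIR429 (-0.21, adjusted p = 0.426, limma) did not pass. MIR205HG, the host of miR-205, was the most abundant transcript of this list, with a log2 fold change of -0.17 (adjusted p = 0.0523, limma) and means of 65.4 and 73.8 FPKM. Of the 12 host and antisense transcripts found 8 were tested, with 1 called higher and 0 lower, where 5.83% of all genes tested were called higher and 7.45% lower. Their median log2 fold change was -0.11, against -0.01 over all genes tested. At an unadjusted p under 0.05 limma gave 3 lower and 1 higher, and voom also called 0 lower. In 1 of the fits without 1 of the libraries, 1 was called lower. ZEB2-AS1 was at 0 in all libraries.

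The MIR200CHG promoter is shown because its transcript was called and miR-200 hosts are known targets of the ZEB repressors. It covers chr12:6962995-6963294 on the plus strand (RefSeq, GRCh38.p14), from 250 bases before the start to 50 after it, with the E-box CACCTG in capitals 78 bases before the start.
MIR200CHG: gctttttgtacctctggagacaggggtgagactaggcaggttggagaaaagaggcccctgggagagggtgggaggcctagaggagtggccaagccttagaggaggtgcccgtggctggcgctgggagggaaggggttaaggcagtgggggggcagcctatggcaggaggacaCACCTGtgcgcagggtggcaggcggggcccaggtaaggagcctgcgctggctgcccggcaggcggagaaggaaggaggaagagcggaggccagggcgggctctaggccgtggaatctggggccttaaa
The CDH2 window is shown beside it, since CDH2 had the largest log2 fold change of the 5 tested members. It covers chr18:28177081-28177380 on the minus strand and holds no CACCTG on either strand.
CDH2: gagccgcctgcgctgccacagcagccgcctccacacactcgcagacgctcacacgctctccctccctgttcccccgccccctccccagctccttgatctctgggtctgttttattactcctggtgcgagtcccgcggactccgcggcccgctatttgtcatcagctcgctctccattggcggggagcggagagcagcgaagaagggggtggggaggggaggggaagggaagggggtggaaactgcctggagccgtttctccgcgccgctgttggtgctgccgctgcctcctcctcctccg
The E-box occurred on either strand in 20.6% of all 35116 windows and in at least 1 window of 24.1% of the 27305 genes. The members CDH2, VIM, ZEB1 and ZEB2 had a window, and ZEB1 was the 1 that held it. In the list of other epithelial genes 14 of the 21 with a window held it (66.7%), in the list of mesenchymal genes 3 of 19 (15.8%), and in the list of other transcription factors of the transition 0 of 13. A match gives letters only and says nothing of binding in these cells.

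Other epithelial genes were present throughout, and most of them kept their level within the size needed for a call. All 37 were tested, with 2 called higher and 1 lower, against 4 and 0 with either TPM or quantile scaling. The median log2 fold change was -0.01, and 0.03 with those scalings. With no minimum size 12 passed as higher and 7 as lower. The shares over all genes tested were 5.83% called higher and 7.45% lower, and 19.4% and 23.1% that passed. The keratins KRT8, KRT18 and KRT19, which build the epithelial cytoskeleton, were among the most abundant, with means of 895 and 839, 763 and 724, and 932 and 939 FPKM in BrM3-shAKR1B10 and BrM3-shNC. They did not pass the test (log2 fold changes 0.10, 0.08 and -0.01, adjusted p = 0.236, 0.215 and 0.908, limma). KRT7, a keratin of simple epithelia with means of 468 and 535 FPKM, passed as lower without overlap (-0.19, adjusted p = 0.0207, limma) but was too small for a call. FXYD3, a regulator of the sodium pump (0.89, adjusted p = 7.853e-05, limma), and MUC1, an apical mucin (0.63, adjusted p = 0.000562, limma), rose. DSP, the desmosomal plaque protein, fell by 0.51 on the log2 scale (adjusted p = 0.000103, limma), and its call was lost without BrM3-shAKR1B10 replicate 1 (log2 fold change -0.50) or BrM3-shNC replicate 2 (-0.48).

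Most tested genes of the mesenchymal list were lower after the knockdown. Of its 34 genes 17 reached 1 FPKM and were tested, with 7 called lower (41.2%) and 1 higher, and a median log2 fold change of -0.42. Over all genes tested 7.45% were called lower and the median was -0.01. Like the other gene lists, this list was chosen with earlier results of these data known, so its shares describe the list only. With no minimum size 13 passed as lower and 2 as higher, where 23.1% and 19.4% of all genes tested did. TNC, a matrix glycoprotein, fell from 20.5, 21.2 and 20.8 FPKM in BrM3-shNC to 4.97, 4.87 and 5.10 FPKM in BrM3-shAKR1B10, a log2 fold change of -2.04 (adjusted p = 1.889e-06, limma). The fibronectin receptor subunit ITGA5 (-1.09, adjusted p = 0.000335, limma), the receptor tyrosine kinase AXL (-0.84, adjusted p = 0.000144, limma) and the matrix protein TGFBI (-0.80, adjusted p = 8.774e-05, limma) followed. COL1A1, a chain of type I collagen, was also lower (-0.67, adjusted p = 0.00319, limma), while its partner COL1A2 was at 0 in every library. Fibronectin (FN1, -0.57) and COL5A1 (-0.56) complete the lower genes and are named after their values were seen. FSTL1, a secreted glycoprotein, rose by 0.53 (adjusted p = 0.00146, limma), and its call was lost without BrM3-shAKR1B10 replicate 2 (log2 fold change 0.50). LGALS1, the most abundant of the list, changed by -0.37 on the log2 scale (adjusted p = 0.00315, limma) and was not called. CDH2, the mesenchymal cadherin, thus differed in direction from the 7 called matrix and receptor genes of the list.

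The summed fibroblast markers lay at 1.20 to 1.37 FPKM in BrM3-shAKR1B10 and at 2.03 to 2.08 FPKM in BrM3-shNC, nearly all of it COL1A1, and their part in the mesenchymal result was not tested. DCN and LUM, which are abundant in fibroblasts, were at 0.

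Most other transcription factors tied to the transition that were tested or called shared the direction of SNAI1, with KLF8 as an exception. Of 17 genes 8 were tested and all 8 passed the adjusted p as lower, as did 23.1% of all genes tested. Of these 3 were called lower and 0 higher by limma, and the same counts came from voom on the same genes (0 higher also at an unadjusted p under 0.05). With TPM or quantile scaling 1 was called lower. The list had a median log2 fold change of -0.36. Over all genes tested 7.45% were called lower. This list was also chosen with earlier results of these data known, so its shares describe the list only. KLF8, a Krüppel-like factor, fell just short of the filter with a mean of 0.968 FPKM. It stood at 1.28, 1.26 and 1.28 FPKM in BrM3-shAKR1B10 and at 0.695, 0.675 and 0.613 FPKM in BrM3-shNC, and the groups did not overlap. KLF8 was called higher with a minimum of 0.1 FPKM (log2 fold change 0.86, adjusted p = 0.00324, limma), with no filter (0.86, adjusted p = 0.00861, limma) and by voom on genes of at least 10 reads (0.95, adjusted p = 1.493e-06). That voom fit also called TCF4 (-0.54) and LEF1 (-1.46) lower, both under 1 FPKM. These 3 genes are named after their values were seen. ID1, an inhibitor of helix-loop-helix factors, fell by 0.68 on the log2 scale (adjusted p = 0.000115, limma), and TCF3, which encodes the E-box binding E proteins, fell by 0.53 (adjusted p = 0.000169, limma). ID3, another inhibitor of the same kind, fell by 0.52 (adjusted p = 0.00596, limma). The call of TCF3 was lost without BrM3-shAKR1B10 replicate 2 (log2 fold change -0.50), and that of ID3 without BrM3-shAKR1B10 replicate 2 (-0.49), BrM3-shAKR1B10 replicate 3 (-0.48), BrM3-shNC replicate 2 (-0.49) or BrM3-shNC replicate 3 (-0.45). FOXQ1, a forkhead factor and the most abundant of the list, had means of 67.2 and 83.2 FPKM and a log2 fold change of -0.31 (adjusted p = 0.00264, limma), too small for a call.

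Kinases, ubiquitin ligases and corepressors that act on SNAI1, SNAI2 or ZEB1, some of which oppose these repressors, were lower in part. Of 22 genes 19 were tested, with 4 called lower and 0 higher by limma and a median log2 fold change of -0.24. At an unadjusted p under 0.05 limma gave 11 lower and 2 higher, and voom called 5 lower and 0 higher. PRKD1, under the filter and picked after its values were seen, was called lower with a minimum of 0.1 FPKM (-0.86, adjusted p = 0.01265, limma). With no minimum size 11 passed as lower and 1 as higher. Over all genes tested 7.45% were called lower, 23.1% passed as lower and 19.4% as higher. Here too the list was chosen with earlier results of these data known, so its shares are a description only. KDM1A, the histone demethylase LSD1 that binds the SNAG domain of SNAI1, stood at 28.3, 27.9 and 28.0 FPKM in BrM3-shAKR1B10 and at 65.7, 58.8 and 63.5 FPKM in BrM3-shNC (log2 fold change -1.15, adjusted p = 1.606e-05, limma). PAK1, a kinase of SNAI1 (-0.65, adjusted p = 0.000597, limma), EZH2, the methyltransferase of Polycomb (-0.64, adjusted p = 0.000133, limma), and BTRC, a ubiquitin ligase subunit that marks SNAI1 for degradation (-0.58, adjusted p = 0.000898, limma), were called lower too. HDAC1, the deacetylase and most abundant gene of the list, changed by -0.24 on the log2 scale (adjusted p = 0.00119, limma).

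No partner of cadherins at the membrane was called. Of 20 genes 17 were tested and limma called 0, as did voom on recovered reads, with a median log2 fold change of 0.00. At an adjusted p under 0.05 and no minimum size 4 passed as lower and 5 as higher, and at an unadjusted p under 0.05 these were 4 and 6 by limma. Of all genes tested 7.45% were called lower and 5.83% higher, and 23.1% passed the adjusted p as lower and 19.4% as higher. RHOA, the GTPase and most abundant of the list, had means of 111 and 141 FPKM and a log2 fold change of -0.34 (adjusted p = 0.000316, limma). Beta-catenin (CTNNB1), which binds the tails of CDH1 and CDH2 alike, had -0.44 (adjusted p = 0.000248, limma) and is named after its values were seen.

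Few other cadherins were detected. Of 18 genes 3 were tested and 7 were at 0 in all libraries. CDH4, under the filter and picked after its values were seen, was higher after the knockdown without overlap. It stood at 0.677, 0.806 and 0.721 FPKM in BrM3-shAKR1B10 and at 0.512, 0.442 and 0.619 FPKM in BrM3-shNC. CDH5, the cadherin of endothelium, rose from 1.17, 1.09 and 1.16 FPKM in BrM3-shNC to 1.94, 1.86 and 1.75 FPKM in BrM3-shAKR1B10 (log2 fold change 0.65, adjusted p = 0.00390, limma). The summed endothelial markers, which include CDH5, lay at 2.10 to 2.37 FPKM in BrM3-shAKR1B10 and 1.52 to 1.79 FPKM in BrM3-shNC, and CDH5 made up most of the sum. PECAM1, another endothelial marker, went the other way without overlap, at 0.292, 0.293 and 0.233 FPKM in BrM3-shAKR1B10 and 0.513, 0.412 and 0.388 FPKM in BrM3-shNC, and KDR was at 0. CDH24, the most abundant of the list, differed by -0.40 on the log2 scale (adjusted p = 0.00167, limma) and was not called. Among intermediate filaments related to VIM 4 of 9 were tested and 2 were called lower, where 7.45% of all genes tested were, the stem cell filament NES (-0.96, adjusted p = 0.000172, limma) and the neurofilament NEFH (-0.56, adjusted p = 0.000224, limma). INA, the most abundant of them, changed by 0.21 on the log2 scale (adjusted p = 0.0312, limma). The brain cell markers summed to 2.96 to 3.16 FPKM in BrM3-shAKR1B10 and 3.75 to 3.92 FPKM in BrM3-shNC, mostly MBP.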

How the data were processed

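Expression was measured by RNA-seq in 3 BrM3-shAKR1B10 and 3 BrM3-shNC libraries of PC9-BrM3 cells, grouped by the sample labels. mRNA was selected with poly-T beads. The authors aligned the reads with HISAT2 2.0.5, counted them per gene with featureCounts 1.5.0-p3 and deposited FPKM values per gene and library, with no pooling. Whether counting used strand is not given in the sources used here, and the library protocol as described does not mark it. Positions of all 58735 genes matched GENCODE 29. The deposited values also carry a median-of-ratios scaling between libraries. Reads recovered from FPKM and gene length came out whole for 100% of values, within 0.05 reads.

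The 13150 genes that averaged 1 FPKM or more were tested by limma (version 3.58.1, R 4.3.3), using lmFit and a trended eBayes on values transformed as log2(FPKM + 0.1), with Benjamini-Hochberg adjustment over all of them. The pseudocount shrinks the fold changes of genes at low level. Low members were compared by an exact permutation test. The scripts were tested on simulated data. All pairs of libraries within a group differed by more than sampling noise (chi-square per gene of 2.35 or more), and each was counted as 1 sample. One gene of the epithelial list is not reported here and was left out of its counts. Members and gene lists were chosen with earlier results of these data known. The rule for named genes covers the 10 members, AKR1B10, the called genes with the 4 largest changes per list and direction, the most abundant gene of each list, KRT8, KRT18 and KRT19, and cell type markers of at least 1 FPKM. Other genes named, among them the microRNA genes, antisense genes and cell type markers under 1 FPKM, were picked after their values were seen. Alternatives covered the pseudocount, the filter, the scaling, the variance model, voom on recovered reads, a replicate block, the call size and each library left out. Sequences were read from RefSeq and GENCODE tables.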

Additional observations from a re-analysis of the deposited data

How the results depend on the processing

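No direction reversed for EPCAM, CDH1, CDH3, CDH2 or SNAI1 in any alternative run. CDH2 kept its call in every alternative in which it was tested, with log2 fold changes of 0.70 to 1.33. SNAI1 lost its call with no filter (log2 fold change -0.58), with a pseudocount of 1 (-0.40) and with a size threshold of 1 (-0.58), and ranged from -0.72 to -0.49 over the fits without 1 library. Neither was tested at a mean FPKM of at least 5. Over all genes the main counts were 980 lower and 766 higher, and 873 and 902 with TPM scaling. They became 532 and 290 at a mean FPKM of at least 5, where fewer genes were tested, and 205 and 168 with the size threshold of 1. The higher count was 497 with a pseudocount of 1 and 1261 with voom on 21834 genes, where more genes were tested. In the gene lists together 17 calls were lower and 5 higher, against 10 and 1 at a mean FPKM of at least 5 and 3 and 0 with the size threshold of 1. The higher calls were 8 with quantile scaling and 3 with a pseudocount of 1. Without 1 library they were 16 to 18 and 4 to 6. Of the 22 list genes called, 17 kept their call without any 1 library. DSP and ID3 also lost theirs under TPM and quantile scaling and a pseudocount of 1, TCF3 under TPM and quantile scaling, and COL1A1, COL5A1, FSTL1, CDH5 and BTRC with a pseudocount of 1.

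The replicate numbers did not pair the libraries. The correlations of deviations between same-numbered libraries were -0.0155, 0.00388 and 0.00383. With the number as a replicate block the log2 fold change of CDH2 was 1.22 (adjusted p = 0.00840, limma) and that of SNAI1 was -0.58 (adjusted p = 0.0287, limma), 967 genes were called lower and 719 higher, and all 22 list genes kept their call.

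Depth limits SNAI2, ZEB1, ZEB2, VIM and TWIST1, which gave at most 23 reads in a library.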

Other observations

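Some genes tied to the same state lie outside the rule for named genes and were picked after their values were seen. TWIST2, the closest relative of TWIST1, was present where TWIST1 gave no reads. It stood at 3.25, 2.95 and 3.09 FPKM in BrM3-shAKR1B10 and at 4.12, 3.46 and 3.68 FPKM in BrM3-shNC, and all 3 control libraries lay above the knockdown libraries (log2 fold change -0.27, adjusted p = 0.0364, limma), which was too small for a call. ADAM10, a protease that sheds the outer part of CDH1 and CDH2, stood higher by 0.35 on the log2 scale (adjusted p = 0.000814, limma), also under the size needed.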
